A study of Rattus norvegicus with 4 samples.

Results

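Venous-side endothelial cells were 289 of the 2840 endothelial cells that passed a marker gate, or 10.2% (exact 95% interval 9.09 to 11.4%), among 28879 quality-filtered cells of 31638 barcodes of rat hippocampus. Cells with fewer than 500 UMIs (unique molecular identifiers, which count captured transcripts) or 300 genes, or with over 20% of UMIs from mitochondria, were left out. The endothelial gate asked for at least 3 UMIs of Cldn5 and 1 of Flt1, at most 5 UMIs over C1qa, C1qb and C1qc, at most 5 over Mag, Mog and Mobp, and less than 5% haemoglobin UMIs. A cell was venous-side when its UMIs of Nr2f2 and Slc38a5 (together called V) came to at least 2 and exceeded those of the arterial genes Sema3g, Bmx, Gja4, Gja5 and Hey1. Ackr1, which the rule also names, has no symbol in the gene list and was not analysed here. The members were thus selected on measured Nr2f2 and Slc38a5 UMIs, so the levels of the rule and gate genes are given as a description only. The comparison was with the 2168 cells of the same gate that held no V UMI, called V = 0 cells. Arterial cells were not removed from these.

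The series lists 4 droplet libraries of hippocampus from male wild-type Sprague Dawley rats, titled DEPR and MD (both described as chronic stress), MCAO (occlusion of the middle cerebral artery on one side with a monofilament, a stroke model) and NC (the negative control). The design text speaks of groups of 10 rats aged 10 to 12 months that all underwent MCAO, one of them with chronic stress afterwards, and of 5 hippocampi per group. The deposited matrix pools the libraries under 4 barcode suffixes, here called sets 1 to 4, and the labels used here tie no set to a title. Each set therefore keeps its own value, no treatment was compared with its control, no difference was tested, and every interval covers counting error only.

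Brain endothelium changes along the vascular tree. Arterial cells carry Notch and ephrin genes, capillary cells carry most of the nutrient transport, and post-capillary venules and veins are the segment where leukocytes attach and cross, through adhesion molecules such as VCAM1. Venules of the brain are also known as a main site where blood-borne interleukin signals are turned into prostaglandin that reaches nearby neurons. Slc38a5 is an amino acid transporter of capillary-venous and venous cells, and Nr2f2 (COUP-TFII) is the transcription factor that holds venous identity, which pericytes and other mural cells express as well.

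Sets 1 to 4 gave 53, 22, 86 and 128 venous-side cells, which were 5.82, 7.12, 13.8 and 12.9% of their gated cells. Their V = 0 cells numbered 759, 259, 442 and 708. The members were the deeper cells, with medians of 14810, 10566.5, 8432 and 8976 UMIs in venous-side cells and 4683, 3387, 4243.5 and 3694.5 UMIs in V = 0 cells. Because of this gap in depth, levels are given as UMIs per 1000000 UMIs of the summed cells (CPM). Scrublet called 1 of the 289 venous-side cells a doublet (0.346%), against 16 of the 2168 V = 0 cells (0.738%). Of 31542 barcode sequences, 96 occurred in more than 1 set, and 1 venous-side cell carried one of them.

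The 289 cells held 1587 Slc38a5 UMIs and 517 Nr2f2 UMIs, with a median V of 3 and a highest V of 108. The label's markers that the rule did not use are Vwf and Vcam1. Vwf, the adhesive clotting protein stored in endothelial cells, was at 2237.8, 2329.5, 918 and 1111.6 CPM in venous-side cells of sets 1 to 4, against 1047.3, 998, 475 and 382 CPM in V = 0 cells. Vcam1, the ligand of leukocyte integrins, was at 446, 545, 294 and 640 CPM in venous-side cells, against 17.2, 23.0, 32.7 and 22.4 CPM in V = 0 cells. The Vcam1 levels of the 2 groups lay far apart in every set, while Vwf in venous-side cells of set 3 was below Vwf in V = 0 cells of sets 1 and 2. Thinned to 1000 UMIs per cell, Vwf was found in 53.1% of venous-side cells (exact 95% interval 47.2 to 59.0%), in 45.1% of V = 0 cells (42.9 to 47.3%) and in 0.316% of microglia-rule cells, which were taken by their C1q UMIs, against 90.7, 78.2 and 1.25% unthinned. With cells weighted equally (mean of per-cell CPM) the log2 ratio of Vwf was 0.85 and missed the fold, against 1.16 in the summed cells. Just inside the threshold, the 113 cells with V of 2 had Vwf at 877 CPM and Vcam1 at 118 CPM. Just outside, the 335 cells with V of 1 had Vwf at 697 CPM and Vcam1 at 43.6 CPM. The summed levels rest mostly on the 93 venous-side cells with V above 5, which had a median of 22201 UMIs. These held 2443416 of the 4198620 UMIs of the venous-side cells and 1755 of their 2040 Vcam1 UMIs. Markers of lymphatic endothelium summed to 3.91, 0, 5.76 and 3.59 CPM in venous-side cells, with 5 of 8 genes at 0, against 4.2, 5.12, 4.08 and 4.15 CPM in V = 0 cells.

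**Figure D1:**
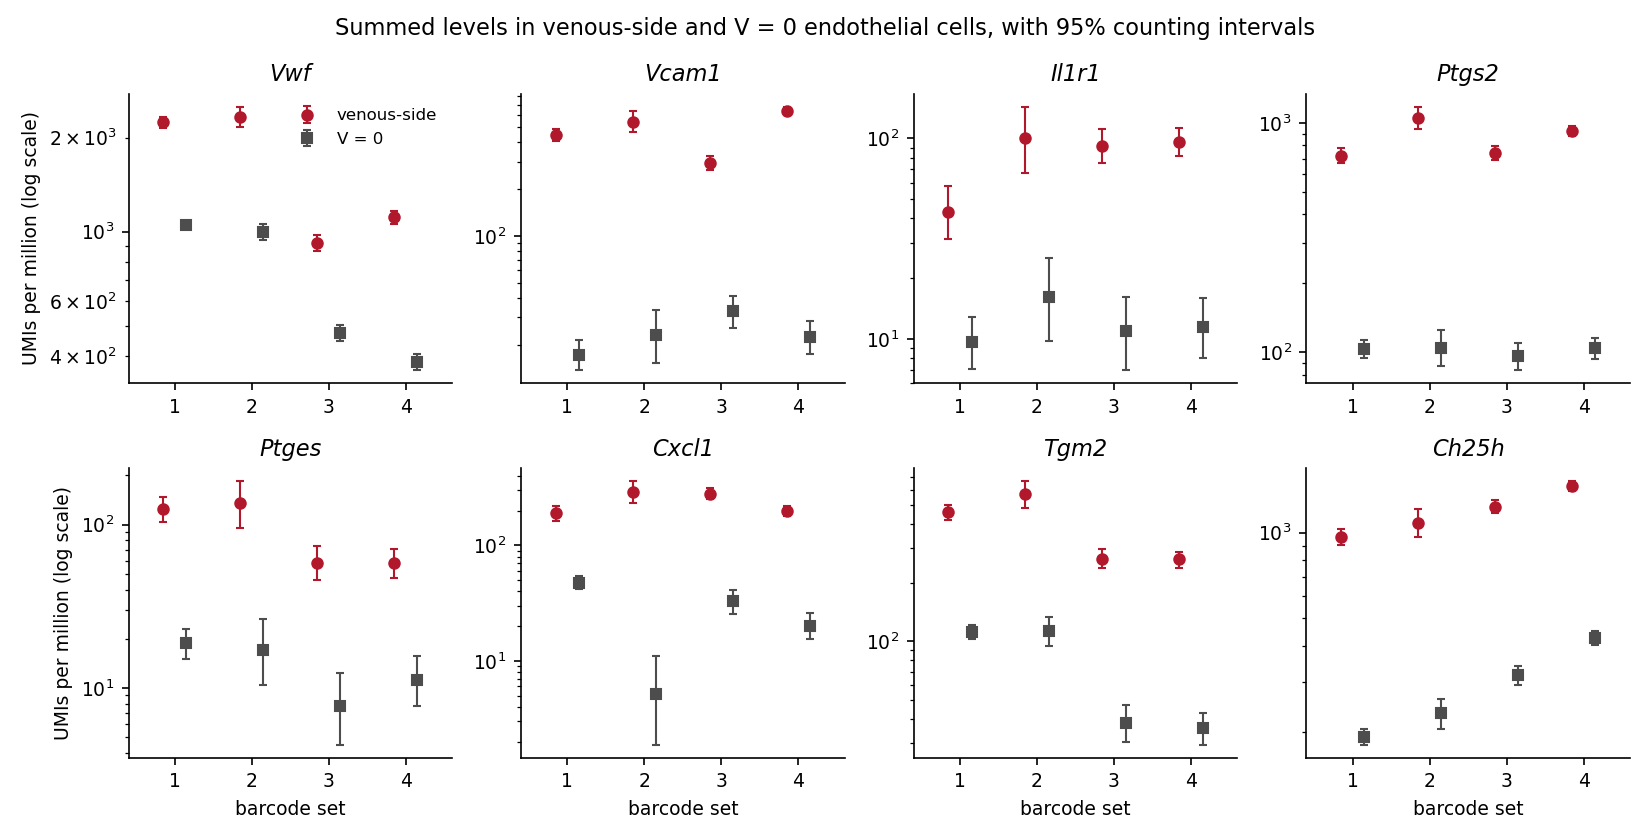
Summed level (UMIs per 1000000 UMIs, log scale) of 8 genes in venous-side cells (red circles) and V = 0 cells (grey squares) of each barcode set, with exact Poisson 95% intervals. Ptgs2 lies between 723 and 1056.1 in venous-side cells and between 96.2 and 105 in V = 0 cells; Vwf and Tgm2 are high in both groups of sets 1 and 2.

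Outside the rule and gate genes, 5220 genes had enough UMIs to measure in every set (at least 5 expected in the venous-side sum at equal level). A gene was called when its ratio of venous-side to V = 0 level was at least 1.5, or at most 1/1.5, in all 4 sets, which is a rule of size and no test. By it 82 genes (1.57%) were higher and 94 genes (1.8%) lower in venous-side cells, and the median log2 ratio of all measured genes was 0.01. Of the 82 higher genes 60 would have been measured at their V = 0 level alone, as would all 94 lower ones. Among the higher genes named below, Adamts4, Batf, Birc3, Cxcl1, Il1r1, Lgals3, Mcam, Ndufa4l2, Pdgfrb, Ptges, Ramp3, RGD1564664, Sulf2 and Ubd had enough UMIs only through the venous-side cells, so higher was the one call open to them, and list counts that hold them are a description. Set 2, with 22 members, limits the calls: without it 191 genes were higher and 189 lower.

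Transcripts of pericytes, the mural cells that sit on capillaries and venules, were found in part of the venous-side cells, and several of the higher genes are pericyte genes. How the transcripts came to be in these cells was not tested. The 9 pericyte markers summed to 790, 777, 719 and 894 CPM in venous-side cells, against 91.5, 224, 192 and 336 CPM in V = 0 cells, and 6 of the 7 measured ones were called higher. More than 2 pericyte UMIs were found in 69 venous-side cells (23.9%) and in 116 V = 0 cells (5.35%). Arterial-side cells were the 227 gated cells with at least 2 UMIs of the arterial rule genes and more of these than V. Of them 37.4% held more than 2 pericyte UMIs, as did 21.5% of the cells with V of 1. Pericyte transcripts were thus not particular to the venous-side cells. Pdgfrb, the pericyte growth factor receptor, was at 57.7, 72.5, 61.7 and 86.2 CPM in venous-side cells and at 8.39, 16.2, 12.7 and 19.2 CPM in V = 0 cells. Among the 20 genes with the largest positive ratios, the pericyte genes Abcc9 and Pdgfrb stood beside Ndufa4l2 and RGD1564664. With both groups limited to cells of at most 2 pericyte UMIs (220 venous-side and 2052 V = 0 cells), these 4 genes were no longer measurable. Abcc9 and Pdgfrb are among the markers that set this limit, so their lower ratio follows from it. There the log2 ratio of RGD1564664 was -0.38 and that of Abcc9 0.42. In that comparison 55 of 4321 measured genes were higher and 93 lower, and 44 of the 82 higher genes kept their call, out of 56 that could still be measured. Smooth muscle markers summed to 153, 169, 395 and 231 CPM in venous-side cells, against 60.2, 51.2, 226 and 213 CPM in V = 0 cells. Fibroblast markers summed to 110, 13.8, 74.8 and 61.7 CPM in venous-side cells, against 2.94, 10.2, 15.0 and 12.1 CPM in V = 0 cells. The part of these cell types in other genes was not tested beyond the pericyte limit. Below, a count is for all cells unless the pericyte limit is named.

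**Figure D2:**
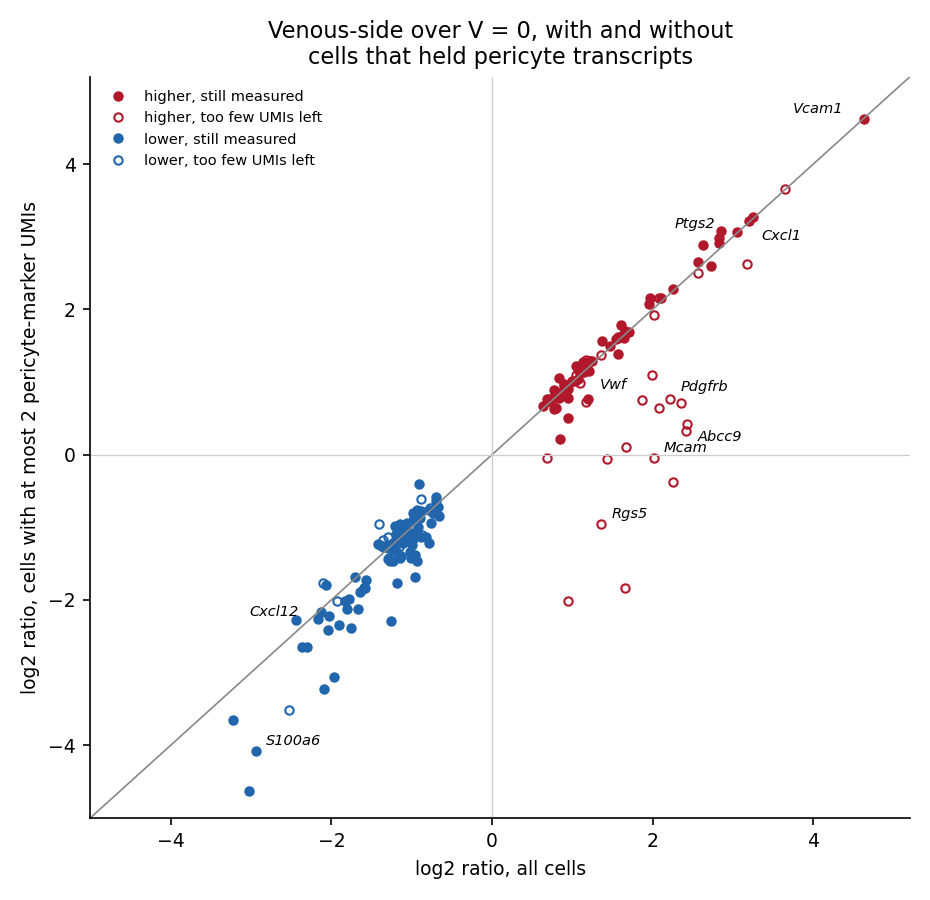
Median log2 ratio of venous-side over V = 0 level for each called gene, in all cells (horizontal) and in cells with at most 2 pericyte-marker UMIs (vertical); open circles had too few UMIs left to measure. Vcam1 (4.63 and 4.62) and Ptgs2 (3.05 and 3.06) lie on the line of equality, while Mcam lies well below it, as do Pdgfrb, Abcc9 and Rgs5, which are among the markers that set the limit.

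Genes known to mark venous cells were mostly higher, in all cells and in those low in pericyte transcripts. Of 14 measured genes of a venous list outside the rule, 9 were higher and 1 lower, with a median log2 ratio of 1.19, and the counts were again 9 and 1 in cells of at most 2 pericyte UMIs. Car4, among the 9, is also in the capillary list. Against V = 0 cells with no UMI of the arterial rule genes, 8 of 14 were higher and 1 lower. Tgm2, a protein cross-linking transglutaminase, was at 459, 569, 266 and 264 CPM in venous-side cells and at 112, 113, 38.1 and 35.8 CPM in V = 0 cells, a median log2 ratio of 2.57. Ch25h, which makes an oxysterol from cholesterol, was at 967, 1083.7, 1235 and 1457.1 CPM in venous-side cells and at 192, 232, 315 and 426 CPM in V = 0 cells. The 93 cells with V above 5 held 4243 of the 5238 venous-side Ch25h UMIs, and the 113 cells with V of 2 had Ch25h at 432 CPM. Microglia-rule cells held Tgm2 at 3.11 CPM and Ch25h at 641 CPM. For Tgm2 and Ch25h the lowest venous-side set lay above the highest V = 0 set. Lrg1, a secreted glycoprotein, was at 1876.1, 1877.4, 406 and 462 CPM in venous-side cells and at 519, 443, 125 and 89.5 CPM in V = 0 cells, so that sets 1 and 2 were high in both groups. Lcn2, an iron-siderophore binding protein, had a log2 ratio of 1.22. The lower gene was the sialomucin Emcn, at -1.07. Ephb4 (log2 ratio 0.53), the venous ephrin receptor, and Tek (0.48) did not reach the fold in every set. Nrp2 and Adgrg6 of the same list had too few UMIs over both groups to be measured in every set, with 125 and 401 UMIs in venous-side cells and 20 and 18 UMIs in V = 0 cells. In set 1 Adgrg6 was at 0.978 CPM in venous-side cells and 0.839 CPM in V = 0 cells.

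**Figure D3:**
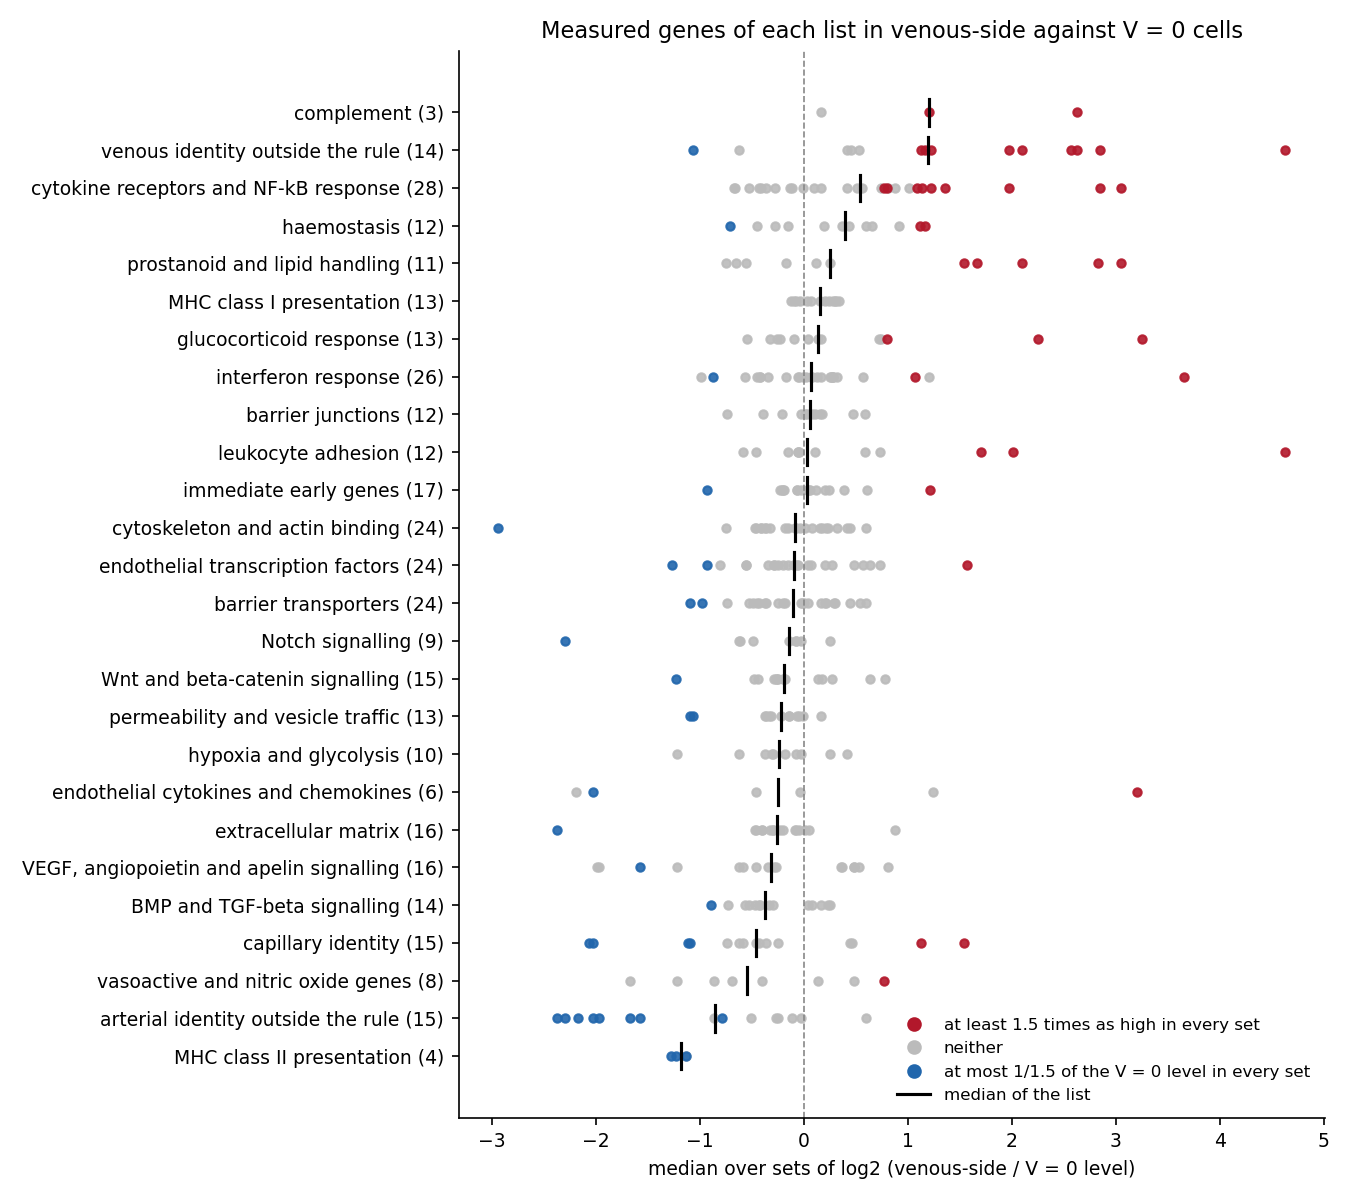
Each point is a measured gene of the list named at left (number measured in brackets), placed by its median log2 ratio of venous-side over V = 0 level; black bars are list medians and the dashed line is the median of all measured genes. Red points cluster in the venous, cytokine receptor and prostanoid lists and blue points in the arterial list, where 8 of 15 genes are lower. The lists share genes, so some points are drawn more than once. Il1r1, Lrg1 and Lcn2 are in the venous and cytokine receptor lists. Ch25h is in the venous and prostanoid lists, Ptgs2 in the cytokine receptor and prostanoid lists, and Car4 in the venous and capillary lists.

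Some receptors through which endothelium senses interleukins and tumour necrosis factor were higher in the venous-side cells. Of 28 measured cytokine receptor and NF-kB response genes, 9 were higher, 19 did not pass and none was lower, with a median log2 ratio of 0.54 (7 higher and none lower of 23 in cells of at most 2 pericyte UMIs). Il1r1, Lrg1 and Lcn2 among the 9 are also in the venous list. Il1r1, the signalling receptor of interleukin-1, was at 43.0, 100, 92.1 and 96.4 CPM in venous-side cells and at 9.65, 16.2, 10.9 and 11.5 CPM in V = 0 cells. Its 4 venous-side levels were all above its V = 0 levels, which were too low to pass the filter alone, with a log2 ratio of 2.85 (3.08 in cells of at most 2 pericyte UMIs). The interleukin-6 receptor chains Il6st and Il6r (log2 ratios 1.14 and 1.09), the tumour necrosis factor receptor Tnfrsf1a (0.77) and the anti-apoptotic Birc3 (1.36) were also higher, though Tnfrsf1a missed the fold with a log2 ratio of 0.63 under the pericyte limit. Nfkbia, the NF-kB inhibitor, had a log2 ratio of 0.74 and did not reach the fold in every set.

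Of 12 measured adhesion genes, 3 were higher and none lower, with a list median of 0.03 (2 higher and 1 lower of 10 in cells of at most 2 pericyte UMIs). The 3 higher in all cells were Vcam1 (log2 ratio 4.63), Icam1 (1.70), the other main integrin ligand, and Mcam (2.01), which pericytes also express. In cells of at most 2 pericyte UMIs, Mcam had too few UMIs to be measured and a log2 ratio of -0.05, while Vcam1 stood at 4.62 and Icam1 at 1.69. Icam1 lost its call against V = 0 cells of at least 6000 UMIs. It summed to 162 CPM in venous-side, 117 CPM in arterial-side, 56.8 CPM in V = 0 and 477 CPM in microglia-rule cells. The part of microglial RNA in Icam1 was not tested. After each cell was thinned to 1000 UMIs, Vcam1 was detected in 16.0% of 288 venous-side cells and 1.53% of 2023 V = 0 cells, against 45.7% and 4.66% unthinned. Microglia-rule cells, with a median of 5063 UMIs, were at 3.8% thinned and 13.3% unthinned. The V = 0 share thus lay below theirs and the venous-side share above it. Whether Vcam1 in microglia-rule or V = 0 cells is expressed there or is background was not tested. Vcam1 summed to 48.0 CPM in arterial-side cells and to 52.8 CPM in microglia-rule cells. The selectins were near the floor, with Selp at 8.8, 20.7, 1.64 and 3.59 CPM and Sele at 9.78, 0, 0 and 18.6 CPM in venous-side cells, and neither was measured. The median of 26 interferon response genes was 0.07, with Ubd and Irf1 higher and Gbp4 lower, and none of 20 was called in cells of at most 2 pericyte UMIs, where Ubd was too low to measure. Ubd encodes a cytokine-induced ubiquitin-like protein, and it was at 19.6, 62.1, 32.9 and 37.1 CPM in venous-side cells, against 9.86, 7.68, 0.454 and 1.92 CPM in V = 0 cells. Microglia-rule cells held Ubd at 47.6 CPM, against 33.3 CPM in venous-side cells of all sets, and the part of microglial RNA was not tested.

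Cxcl1, a neutrophil-attracting chemokine, was at 190, 290, 280 and 199 CPM in venous-side cells and at 47.6, 5.12, 32.7 and 20.1 CPM in V = 0 cells. All 4 venous-side sets lay above the V = 0 sets, and the log2 ratio was 3.20 (3.21 in cells of at most 2 pericyte UMIs). Vcam1 and Cxcl1 are textbook targets of NF-kB, so their promoters are shown, 250 bases before to 50 bases after the start in the gene's orientation (RefSeq, GRCr8), with the match to an NF-kB-like motif in capitals.
Vcam1, chr2:206742734-206743033, minus strand: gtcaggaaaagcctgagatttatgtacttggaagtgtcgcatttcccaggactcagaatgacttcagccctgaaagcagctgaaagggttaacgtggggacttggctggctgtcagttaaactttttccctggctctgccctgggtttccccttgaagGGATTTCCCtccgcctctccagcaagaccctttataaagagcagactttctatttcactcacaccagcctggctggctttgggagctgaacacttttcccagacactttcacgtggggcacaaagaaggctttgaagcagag
Cxcl1, chr14:17479272-17479571, minus strand: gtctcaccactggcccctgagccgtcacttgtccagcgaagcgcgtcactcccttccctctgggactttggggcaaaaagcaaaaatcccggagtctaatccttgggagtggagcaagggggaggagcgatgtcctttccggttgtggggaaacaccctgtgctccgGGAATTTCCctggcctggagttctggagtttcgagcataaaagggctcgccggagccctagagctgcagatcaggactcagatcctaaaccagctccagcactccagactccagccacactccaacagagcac
The motif searched was GGANTTNCC on both strands, with matches at the same place on both counted once. The match is GGATTTCCC in Vcam1, its first base 92 bases before the start, and GGAATTTCC in Cxcl1, its first base 83 bases before the start. Of the 82 higher genes 59 had a promoter in the table, and 4 of these held the motif (6.78%: Vcam1, Cxcl1, Icam1 and Batf). It was in 7 of 66 promoters of lower genes (10.6%) and in 3.63% of 27457 promoters in all. A match describes the letters only.

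Genes that make prostaglandin and handle lipid were among the largest differences. Of 11 measured genes of this list, 5 were higher and none lower, with a median log2 ratio of 0.25, and 5 were higher and 1 lower in cells of at most 2 pericyte UMIs. One of the 5, Ptges, was measured only through its level in venous-side cells. Ch25h is also in the venous list and Ptgs2 in the cytokine receptor list. Ptgs2, the inducible cyclo-oxygenase, was at 723, 1056.1, 742 and 928 CPM in venous-side cells and at 103, 105, 96.2 and 104 CPM in V = 0 cells, a log2 ratio of 3.05. The 93 cells with V above 5 held 2893 of the 3498 venous-side Ptgs2 UMIs. In the 113 cells with V of 2 Ptgs2 was at 361 CPM. Ptges, the enzyme that completes prostaglandin E synthesis, was at 124, 135, 58.4 and 58.1 CPM in venous-side cells and at 18.7, 17.1, 7.72 and 11.2 CPM in V = 0 cells, a log2 ratio of 2.83. Both enzymes were higher in every set, Ptgs2 at much the same level across the V = 0 sets and Ptges highest in sets 1 and 2. In arterial-side cells Ptgs2 summed to 284 CPM and Ptges to 1.41 CPM, against 102 and 14.3 CPM in V = 0 cells. Ptgs2 was thus also above the V = 0 level in arterial-side cells, and Ptges was not. Thinned to 1000 UMIs, Ptgs2 was found in 25.7% of venous-side cells (exact 95% interval 20.7 to 31.1%), in 5.09% of V = 0 cells (4.17 to 6.14%) and in 0.703% of microglia-rule cells, against 56.1, 12.9 and 1.96% unthinned. Apoe, the lipid carrier, was at 10163.5, 11326.7, 10961.6 and 11323.9 CPM in venous-side cells, against 2773, 3061.3, 4344 and 4127.3 CPM in V = 0 cells. Thinned, Apoe was found in 98.6% of venous-side, 90.5% of V = 0 and 98.2% of microglia-rule cells, and the part of microglial RNA was not tested. Lpl, the lipoprotein lipase, was at 309, 290, 77.3 and 89.2 CPM in venous-side cells, against 107, 109, 26.3 and 21.7 CPM in V = 0 cells.

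The metallothioneins, small metal-binding proteins that metals, glucocorticoids and cytokines induce, were higher as well. Mt2A was at 1391.2, 1549.6, 548 and 496 CPM in venous-side cells and at 61.5, 77.7, 120 and 115 CPM in V = 0 cells. Over all sets it summed to 802 CPM in venous-side, 238 CPM in arterial-side and 89.4 CPM in V = 0 cells. Mt1 was at 5216.6, 5877.3, 3699.9 and 2944.8 CPM in venous-side cells and at 596, 810, 1186.3 and 1196.9 CPM in V = 0 cells. Their order over the sets was opposite in the 2 groups: venous-side levels were highest in sets 1 and 2, and V = 0 levels in sets 3 and 4. Of 13 measured glucocorticoid response genes, 3 were higher (Mt2A, Mt1 and Cebpd) and none lower, with a median of 0.14, and the same counts held in cells of at most 2 pericyte UMIs. The promoters of this neighbouring pair (RefSeq, GRCr8) are shown because both carry repeated copies of the core to which the metal-responsive factor MTF-1 is known to bind, here in capitals.
Mt1, chr19:10832926-10833225, minus strand: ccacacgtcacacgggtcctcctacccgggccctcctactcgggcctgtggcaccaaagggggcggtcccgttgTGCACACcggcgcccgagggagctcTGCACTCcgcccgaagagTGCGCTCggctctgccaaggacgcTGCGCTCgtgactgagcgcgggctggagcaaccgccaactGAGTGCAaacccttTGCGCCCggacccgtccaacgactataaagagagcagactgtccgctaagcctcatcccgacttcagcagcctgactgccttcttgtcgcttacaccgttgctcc
Mt2A, chr19:10838659-10838958, minus strand: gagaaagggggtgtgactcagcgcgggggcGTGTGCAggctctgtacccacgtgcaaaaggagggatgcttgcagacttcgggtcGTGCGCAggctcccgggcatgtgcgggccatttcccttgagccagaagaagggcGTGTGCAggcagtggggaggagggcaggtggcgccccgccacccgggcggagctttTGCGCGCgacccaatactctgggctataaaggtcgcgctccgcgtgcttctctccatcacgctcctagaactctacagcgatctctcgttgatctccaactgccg
The letters searched were TGCACNC and TGCGCNC on both strands, with 6 matches in Mt1 and 4 in Mt2A. At least 4 matches were found in 0.455% of 27457 promoters.

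Other large positive ratios belonged to genes of varied function. Adamts4, a matrix proteinase, had a log2 ratio of 3.18, Lgals3 (galectin-3) of 2.83, Ramp3, a partner of the adrenomedullin receptor, of 2.73, and Sulf2, which edits heparan sulphate, of 2.56. Ramp3 was at 285, 259, 40.3 and 25.2 CPM in venous-side cells and at 119, 87.1, 2.72 and 1.6 CPM in V = 0 cells. Sets 1 and 2 were high in both groups. In cells of at most 2 pericyte UMIs Ramp3 and Lgals3 kept the call, and Adamts4 and Sulf2 were not measured, with log2 ratios of 2.62 and 2.50. Of 12 haemostasis genes, Vwf and Procr, the endothelial receptor of protein C, were higher and Plat, the tissue plasminogen activator, was lower, with a median of 0.40. Procr did not keep the call in cells of at most 2 pericyte UMIs, where its log2 ratio was 1.14. C1r, a complement protease, had a log2 ratio of 1.20 in all cells and of 0.77, without the call, in cells of at most 2 pericyte UMIs.

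Part of the arterial genes outside the rule were lower in the venous-side cells. Of 15 measured, 8 were lower, 7 did not pass and none was higher, with a median log2 ratio of -0.86, and 9 of 14 were lower in cells of at most 2 pericyte UMIs. The rule itself asks that arterial UMIs stay below V, so this direction is partly set by the choice of cells. Against V = 0 cells with no UMI of the arterial rule genes, 5 of 13 were lower (Dll4, Cxcl12, Alpl, Unc5b and Efnb2) and Mgp was higher, with a median of -0.59. Of all 5237 genes measured in that comparison, 101 were higher and 77 lower. Dll4, a Notch ligand, was at 35.2, 13.8, 22.2 and 21.6 CPM in venous-side cells and at 174, 114, 106 and 105 CPM in V = 0 cells. Cxcl12, a chemokine of arterial and capillary cells, was at 519, 400, 968 and 898 CPM in venous-side cells and at 2568, 2533.7, 3062 and 3022.5 CPM in V = 0 cells. For both genes the highest venous-side set lay below the lowest V = 0 set. Over all sets Cxcl12 summed to 791 CPM in venous-side, 961 CPM in arterial-side and 2787.2 CPM in V = 0 cells. Its lower level was thus shared with arterial-side cells. The phosphatase Alpl (log2 ratio -2.17), the netrin receptor Unc5b (-1.67) and the ephrin Efnb2 (-1.58) were lower too. The elastic fibre protein Fbln5 had a log2 ratio of -2.37, with set 2 at 0 UMIs counted as 3, and its direction turned to 0.41, without enough UMIs to be measured, against V = 0 cells with no arterial UMI. The calcium-binding S100a6 was at 118, 41.4, 71.5 and 141 CPM in venous-side cells, against 747, 1087.6, 663 and 618 CPM in V = 0 cells, and its log2 ratio of -2.94 lost the call when V = 0 cells with any arterial UMI were left out. The transcription factors Msx1 (-3.02), Foxp2 (-2.53, set 2 at 0 UMIs counted as 3) and Mecom (-1.27) and the ectonucleotidase Enpp1 (-2.44) were lower, and Sbspon had the largest negative ratio, -3.23.

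Capillary genes split. Of 15 measured, 4 were lower and 2 higher, with a median of -0.46 (3 lower and 2 higher of 15 under the pericyte limit). Mfsd2a, a lysolipid transporter of barrier endothelium, was at 66.5, 72.5, 105 and 76.7 CPM in venous-side cells and at 136, 120, 237 and 175 CPM in V = 0 cells, and it missed the fold in cells of at most 2 pericyte UMIs with a log2 ratio of -1.02. Over all sets Mfsd2a summed to 82.2 CPM in venous-side, 85.4 CPM in arterial-side and 165 CPM in V = 0 cells, so arterial-side cells shared its lower level. Car4, the membrane carbonic anhydrase, was at 425, 487, 724 and 546 CPM in venous-side cells and at 160, 139, 399 and 341 CPM in V = 0 cells, higher in every set, but it was not called against V = 0 cells without arterial UMIs. The rest of the barrier showed small ratios: of 24 barrier transporters none was higher and 2 lower (Mfsd2a and Slc1a1; neither kept the call in cells of at most 2 pericyte UMIs), with a median of -0.10, and of 12 junction genes none was called, with a median of 0.06. Under the pericyte limit 1 of 12 junction genes was lower. The glucose transporter Slc2a1 was at 2819.5, 2964.5, 1581.1 and 1567.3 CPM in venous-side cells and at 2648.3, 2820.5, 1755.8 and 1713.5 CPM in V = 0 cells, slightly higher in sets 1 and 2 and slightly lower in sets 3 and 4. Of 13 measured MHC class I genes none was called, with a median of 0.15. RT1-Ba, RT1-Da and RT1-Db1 of the 4 measured MHC class II genes were lower, with a median of -1.18. These genes are known mainly from immune cells. Microglia markers summed to 128, 141, 123 and 114 CPM in venous-side cells against 194, 356, 171 and 234 CPM in V = 0 cells, and their part in the class II levels was not tested. None of the 3 kept its call under the pericyte limit or against V = 0 cells of at least 6000 UMIs.

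The remaining lists held few called genes. Of 17 immediate early genes Ier3 was higher and Nr4a1 lower (median 0.03), and of 24 endothelial transcription factors Ets2 was higher and Mecom and Nr4a1 lower (median -0.10). One gene was lower in each of the lists of Notch signalling (Dll4, of 9), Wnt and beta-catenin signalling (Reck, of 15), BMP and TGF-beta signalling (Id2, of 14), VEGF, angiopoietin and apelin signalling (Efnb2, of 16), extracellular matrix (Fbln5, of 16) and cytoskeleton (S100a6, of 24). Their medians were -0.14, -0.20, -0.38, -0.32, -0.26 and -0.09 in that order, against 0.01 for all measured genes. Dll4, Efnb2 and Fbln5 were already counted among the lower arterial genes. Against V = 0 cells with no UMI of the arterial rule genes, none was lower and 1 higher in the extracellular matrix list. The cytoskeleton list gave the same counts there. Of 13 permeability and vesicle genes Mfsd2a and Emcn were lower (median -0.22), of 8 vasoactive genes the stretch channel Piezo1 was higher (-0.55), of 6 chemokine and cytokine genes Cxcl1 was higher and Cxcl12 lower (-0.25), and of 10 hypoxia and glycolysis genes none was called (-0.24). Some counts changed under the pericyte limit. There 2 genes were lower in each of the Notch (of 8), VEGF (of 15), extracellular matrix (of 16) and cytoskeleton (of 24) lists. Of 13 permeability genes 1 was lower, of 8 vasoactive genes 1 was higher and 1 lower, and of 4 chemokine and cytokine genes 1 was higher and 2 lower.

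The members were not uniform, and which of the rule genes a cell held went with the rest of its profile. Slc38a5 and Nr2f2 were found together in 121 cells, Slc38a5 without Nr2f2 in 136 cells and Nr2f2 without Slc38a5 in 32 cells, with medians of 16898, 6576.5 and 9562.5 UMIs. In cells with both genes Vwf was at 2570.4, 2804.1, 1286.6 and 1489.8 CPM over the sets, in cells with Slc38a5 alone at 1789.3, 1656.5, 598 and 472 CPM, and in V = 0 cells at the values above. The order was the same in every set, with cells holding both genes highest. Vcam1 summed to 670 CPM (exact Poisson 95% interval 639 to 702) in cells with both genes, to 219 CPM (192 to 247) in cells with Slc38a5 alone and to 22.3 CPM (19.6 to 25.2) in V = 0 cells. In set 1 alone Vcam1 was as high in cells with Slc38a5 alone (552 CPM) as in cells with both (507 CPM). Ptgs2 summed to 1103.7, 420 and 102 CPM in cells with both genes, in cells with Slc38a5 alone and in V = 0 cells.

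Mfsd2a and Cxcl12 ran the other way in those cells. Mfsd2a was at 55.3 CPM in cells with both genes, 140 CPM in cells with Slc38a5 alone and 165 CPM in V = 0 cells, and Cxcl12 at 509, 1293.8 and 2787.2 CPM in that order. Other capillary genes did not: Car4 was at 465 CPM in cells with both genes, 889 CPM in cells with Slc38a5 alone and 255 CPM in V = 0 cells, and Lpl at 194, 96.6 and 67.9 CPM in that order. In each set both Mfsd2a and Cxcl12 were lower in cells with both genes than in cells with Slc38a5 alone. Depth differed between these cells, so they were also compared at 5000 to 20000 UMIs and at most 2 pericyte UMIs, which left 45, 78 and 700 cells with medians of 10603, 8751 and 7115 UMIs. There Vcam1 was at 555, 191 and 26.5 CPM, Cxcl12 at 626, 1366.4 and 2713.1 CPM and Mfsd2a at 59.6, 139 and 159 CPM in the same order. Set 1, with 11 cells holding both genes and 7 holding Slc38a5 alone, did not follow this order for Vcam1 and Cxcl12: Vcam1 was at 235 CPM with both and 520 CPM with Slc38a5 alone, Cxcl12 at 439 and 358 CPM, and Vwf at 1779.5 and 1853.1 CPM.

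The 32 cells with Nr2f2 alone stood apart from the other venous-side cells. Of them 26 held more than 2 pericyte UMIs, with Rgs5, a pericyte regulator of G protein signalling, at 817 CPM and Pdgfrb at 338 CPM. Vwf stood at 549 CPM (exact Poisson 95% interval 481 to 624) and Vcam1 at 70.4 CPM (47.5 to 100), against 746 CPM and 22.3 CPM in V = 0 cells. Of the markers outside the rule, Vwf was thus below V = 0 cells, against the label, and Vcam1 above them but below the cells with Slc38a5. These cells held gate genes and pericyte transcripts together and are called by their rule gene here. Whether they are doublets was not tested beyond Scrublet, which called none of them. Without Nr2f2 in the rule (V from Slc38a5 alone) 229 cells were selected, and 77 of 4956 measured genes were higher and 108 lower. The 48 gated cells whose V reached 2 but did not exceed the arterial genes were similar in this respect, since 45 of them held more than 2 pericyte UMIs.

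**Figure D4:**
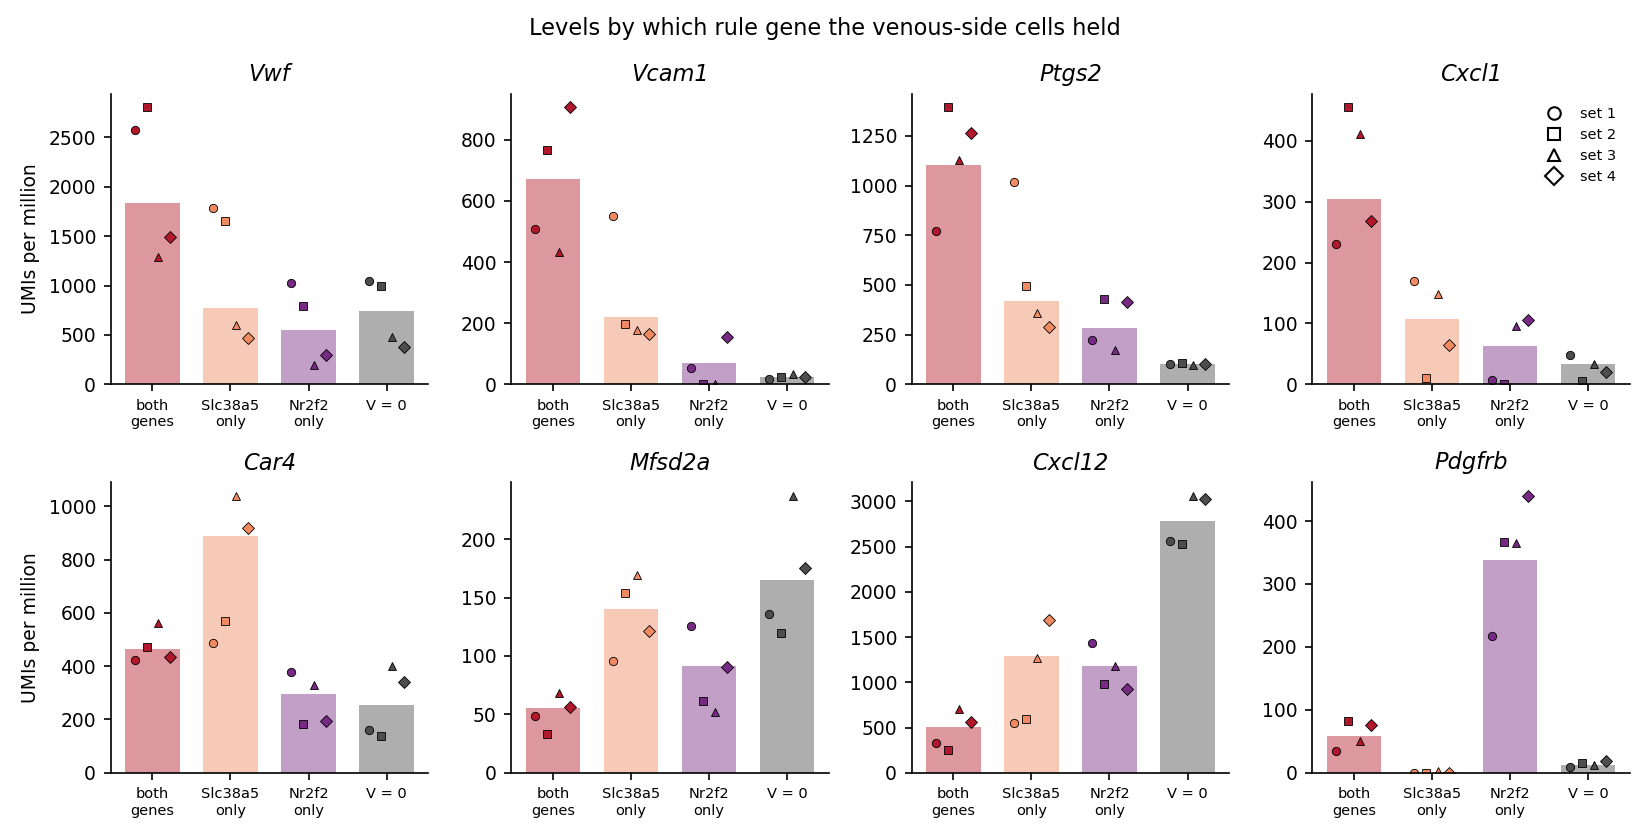
Level (UMIs per 1000000 UMIs) of 8 genes in venous-side cells that held both rule genes, Slc38a5 only or Nr2f2 only, and in V = 0 cells; bars are summed over sets and symbols are the 4 sets. Vcam1, Ptgs2 and Cxcl1 are highest with both genes, Car4 is highest with Slc38a5 only, and Pdgfrb (338) is highest with Nr2f2 only.

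Among the sets, the venous-side cells differed most in a few genes. Of 6724 genes with at least 50 UMIs in venous-side cells, 28.9% differed at least 2-fold between the highest and the lowest set. Adgrg6, Alox15, Cxcl9, Cxcl10, Abca4, Lypd8, Rasa4, Lgals5, Igh-6 and AABR07060872.1 differed most. Cxcl9, Cxcl10 and Cxcl11 encode interferon-induced ligands of CXCR3, a chemokine receptor of activated T cells (Cxcl11 was added after its values were seen). Cxcl9 was at 13.7, 3.45, 228 and 337 CPM in venous-side cells of sets 1 to 4, against 5.03, 1.71, 18.6 and 19.5 CPM in V = 0 cells. Cxcl10 was at 18.6, 10.4, 184 and 499 CPM in venous-side cells, against 34.0, 21.3, 18.2 and 26.5 CPM in V = 0 cells. Cxcl11 was at 17.6, 24.2, 270 and 530 CPM in venous-side cells, against 11.5, 4.27, 13.2 and 7.03 CPM in V = 0 cells. Sets 3 and 4 were high for all 3 chemokines in venous-side cells, whereas V = 0 cells showed no such step for Cxcl10 and Cxcl11.

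The 3 chemokines were concentrated in part of the cells. At least 1 of them was found in 34.0, 27.3, 40.7 and 47.7% of venous-side cells of sets 1 to 4 and in 10.1, 10.0, 14.0 and 13.1% of V = 0 cells. Thinned to 1000 UMIs, the shares were 1.92, 4.55, 18.6 and 25.8% of venous-side cells and 2.31, 2.94, 4.73 and 5.23% of V = 0 cells. Sets 3 and 4 again held the higher venous-side shares. Microglia-rule cells were at 23.3, 24.3, 19.1 and 21.2% thinned and 37.3, 39.1, 38.9 and 39.6% unthinned, so venous-side cells of sets 1 and 2 lay below the microglia-rule cells of their set and those of sets 3 and 4 within a few points of them or above. The part of microglial RNA was not tested. All 3 chemokines together were found in 2, 0, 9 and 20 venous-side cells of sets 1 to 4, or 31 of 289 (10.7%, exact 95% interval 7.41 to 14.9%), in 3 of 2168 V = 0 cells (0.138%) and in 17 of 11441 microglia-rule cells (0.149%). After thinning they were together in 2.08, 0 and 0.0721% of these cells in that order. In set 3 a single cell held 43.3% of the summed UMIs, and without the leading cell of each set the sums were 39.9, 19.7, 410 and 1216.2 CPM in venous-side cells and 37.4, 25.0, 45.1 and 50.6 CPM in V = 0 cells. In cells of at most 2 pericyte UMIs Cxcl9 was at 6.99, 4.86, 202 and 344 CPM in venous-side cells. T cell markers summed to 15.6, 0, 24.7 and 34.1 CPM in venous-side cells and to 11.7, 3.41, 34.0 and 65.8 CPM in V = 0 cells.

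**Figure D5:**
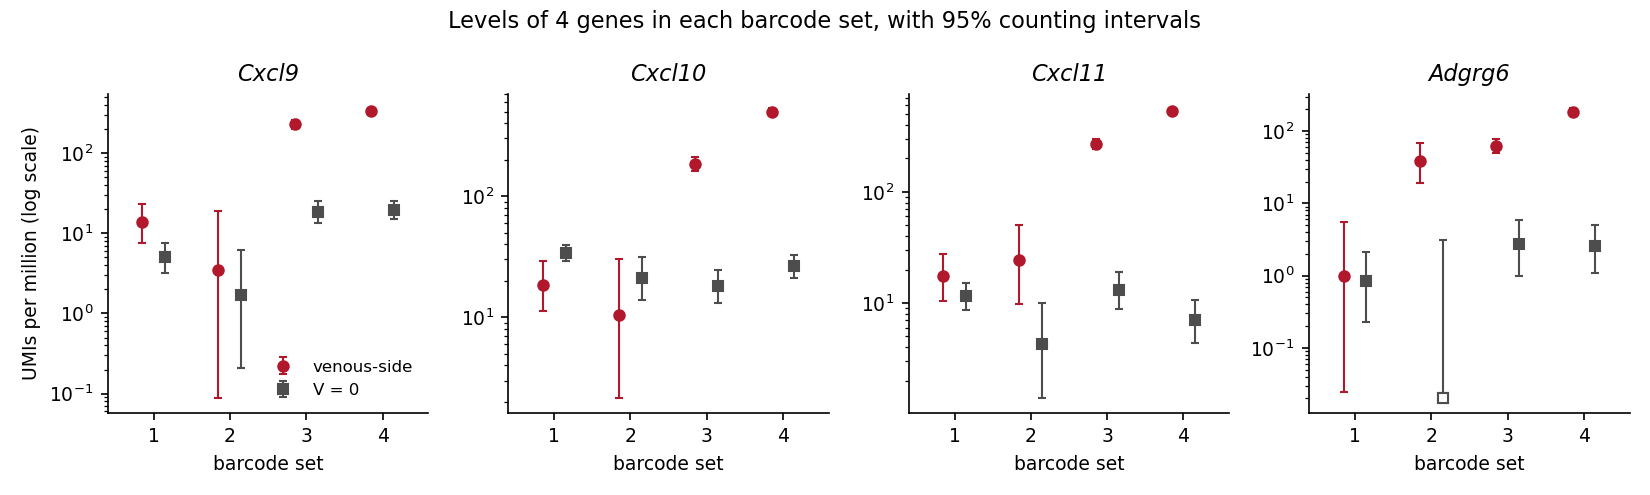
Level (UMIs per 1000000 UMIs, log scale, exact Poisson 95% intervals) of Cxcl9, Cxcl10, Cxcl11 and Adgrg6 in venous-side cells (red circles) and V = 0 cells (grey squares) of each set; the open square, at the foot of its axis, is a sum of 0 UMIs. Venous-side levels of the chemokines are at most 24.2 in sets 1 and 2 and at least 184 in sets 3 and 4.

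Adgrg6, an adhesion G protein-coupled receptor, was at 0.978, 38.0, 62.5 and 187 CPM in venous-side cells, against 0.839, 0, 2.72 and 2.56 CPM in V = 0 cells. It was found in 1, 4, 13 and 30 venous-side cells, and 1 cell of set 2 held 63.6% of that set's UMIs. Alox15, a lipoxygenase, was at 217, 3.45, 0 and 0 CPM in venous-side cells, with 59.9% of the set 1 UMIs in 1 cell, and at 42.2, 28.2, 0 and 0 CPM in V = 0 cells. Abca4, a lipid transporter best known from photoreceptors, was at 59.6, 31.1, 0.822 and 4.79 CPM in venous-side cells, against 170, 140, 0.454 and 0.639 CPM in V = 0 cells. V = 0 cells of sets 1 and 2 were also higher in Alox15 and Abca4 than those of sets 3 and 4. The immunoglobulin heavy chain gene Igh-6 was high in venous-side cells of set 4 through 1 cell, which held 97.0% of its UMIs there, and 1 cell also held 83.1% of the UMIs of AABR07060872.1 in that set. Igh-6 was at 47.9, 62.1, 38.6 and 2169.8 CPM in venous-side cells and at 2215.8, 2575.5, 66.7 and 307 CPM in V = 0 cells. Treatment and library cannot be told apart in these differences, since each title has 1 library, and the sets carry no title.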

How the data were processed

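Droplet libraries (10x 3' version 3 kit, per the labels' protocols) were deposited as 1 matrix of UMI counts, whole numbers with no normalisation, which Cell Ranger 5.0.0 wrote per the file headers. The submitters' processing notes name Cell Ranger, STAR and the build Rnor_6.0; for the annotation and the cell calling settings nothing is stated. It held 32623 genes and 180847756 UMIs, with medians of 4631, 4383, 5679.5 and 5167.5 UMIs per barcode in sets 1 to 4, and the lowest barcode had 500 UMIs. Barcode suffixes are tied to no titled sample, so all samples stayed unassigned.

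Counts were summed per set over venous-side and over V = 0 cells and divided by the total (CPM). Measured genes had 5 or more UMIs expected in the venous-side sum of every set at equal level, and were called at a ratio of 1.5 or 1/1.5 in all 4 sets. A sum of 0 was counted as 3 UMIs, also where a log2 ratio rests on it. With 1 library per title no p-value was made. Intervals are exact Poisson for levels and exact Clopper-Pearson for shares, at 95%, and cover counting error only. Where a symbol named several genes, the one with most UMIs was used. Doublets were called per set with Scrublet (in scanpy 1.11.5, expected share 6%) and kept in the main comparison. For shares, cells were thinned to 1000 UMIs (1 venous-side and 145 V = 0 cells were shallower). Microglia-rule cells held at least 10 UMIs over C1qa, C1qb and C1qc and none of Cldn5 or Flt1. The script that makes the calls was first run on simulated counts with known folds.

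Members and the 26 gene lists (464 genes, 458 in the gene list) and 21 marker lists were chosen with earlier results of these data known. The text names the 4 label markers, rule and gate genes, list and marker genes, the 20 called genes of largest ratio in each direction and the 10 genes that differed most between sets. Some genes that this rule names, and 1 list, are not reported here. The division by rule gene, the depth-matched and pericyte-limited comparisons and the motifs were chosen after the data were seen. Alternatives changed the gate, the rule, the comparison cells, depth, scaling (TMM in edgeR 4.0.16 on R 4.3.3), the filter and the fold. Other tools were numpy 2.4.6, scipy 1.17.1 and pandas 2.3.3 on Python 3.11.15.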

Additional observations from a re-analysis of the deposited data

How the results depend on the processing

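The 82 higher and 94 lower genes became 34 and 53 under a stricter gate, 37 and 35 at a fold of 2, 32 and 45 with at least 20 UMIs expected, and 9 and 9 of 540 measurable genes after thinning to 1000 UMIs. With at least 2 UMIs expected 133 genes were higher and 131 lower. When the rule was applied to cells thinned to 3000 UMIs, 36 were higher and 52 lower. With at most 2 pericyte UMIs and V = 0 cells of at least 6000 UMIs, 44 were higher and 93 lower. Leaving out 1 set in turn gave 96 to 191 higher and 118 to 189 lower genes, the highest counts without set 2. Stricter filters and fewer cells leave fewer genes to measure; otherwise the cause was not tested.

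The venous-side share of gated cells (10.2%) was 11.5% at 10% mitochondrial UMIs, 13.2% in cells of at least 3000 UMIs, 6.2% with V of at least 3, 8.06% without Nr2f2, 8.67% with at most 2 pericyte UMIs and 5.8% by the rule on cells thinned to 3000 UMIs. Of 41 named genes none reversed under any alternative that measured it. The 41 do not include every called gene named above, such as Icam1 and Car4. All 41 were called in all 4 sets, so leaving out 1 set could not lose a call. Not measured were 35 of them after thinning to 1000 UMIs, 18 under the stricter gate and 15 by the rule on thinned cells. Some ratios changed sign where too few UMIs were left: Fbln5 and Phlda3 against V = 0 cells without arterial UMIs, and RGD1564664 under the pericyte limit. TMM scaling kept all 41 calls, and the mean of per-cell CPM lost Vwf, Ubd, Tmem45b, Depp1, Clu and Phlda3. Each ratio compares venous-side and V = 0 cells of the same set, so it is already paired by set. No paired analysis was possible between treatments because no set carries a title. The alternatives on pericyte UMIs, on V = 0 cells of at least 6000 UMIs and on cells thinned to 3000 UMIs were chosen after seeing the data. The 22 venous-side cells of set 2 limit what could be measured, with 8146 genes measured without that set and 5220 with it.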
